A study of Mus musculus with 8 samples.

Results

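Transcripts of ChREBP, its relatives and its glucose-induced targets were followed in cultured mouse pancreatic islets through 6 genes: *Mlxipl* (encoding ChREBP), *Mlxip* (MondoA), *Mlx*, *Txnip*, *Arrdc4* and *Pklr*. They are 6 of the 17362 genes in the single nucleus RNA-seq table. The set was chosen by measured values of this table, because the level of *Mlxipl* was low after forskolin, with known partners and targets added by name. The fall of *Mlxipl* after forskolin is therefore what selected the set, and all forskolin values below are given as a description.

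ChREBP and MondoA are basic helix-loop-helix leucine zipper transcription factors that respond to glucose metabolites. Each binds DNA as a heterodimer with MLX, on carbohydrate response elements that are made of paired E-box-like sites. In beta cells ChREBP mediates much of the transcriptional response to glucose. *Txnip* encodes thioredoxin-interacting protein, an alpha-arrestin that binds thioredoxin and restrains glucose uptake, and *Arrdc4* encodes a related alpha-arrestin. Both are widely used readouts of ChREBP and MondoA activity. *Pklr* encodes liver-type pyruvate kinase, the gene in which the carbohydrate response element was first worked out.

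Islets came from wild type (WT) mice and from mice with a whole-body Med14 S983A knock-in (mutant), which replaces a serine of the Mediator subunit Med14. Islets of each genotype were untreated (CON), treated with forskolin (FSK), an activator of adenylyl cyclase, or treated with Exendin-4 (Ex-4), a GLP-1 receptor agonist. Both treatments lasted 16 h, and Ex-4 was given at 10 nM. No source used here gives the dose of FSK for islets or the age and number of the animals. Every one of the 8 sublibraries mixed nuclei from the 6 conditions, and the table holds 1 pooled value for each condition in each of 9 cell types, so there were no replicates and no test was run. Islet preparation and condition cannot be told apart, and with pooled nuclei fewer transcribing cells and less RNA per cell cannot be told apart either.

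Levels are given as counts per 10000 counts of a column (CP10K), and intervals in brackets are exact 95% intervals for counting error only. Column totals were 1915006 to 3094377 counts in beta cells, 269394 to 810127 in alpha cells and 362410 to 631433 in delta cells, so values outside beta cells are less precise. The labelled cell types held their markers, with some signal elsewhere. The 10 beta cell markers, *Ins1*, *Ins2* and *Iapp* among them, summed to 47.7 to 66.1 CP10K in beta cells. They summed to 12.7 to 34.0 in alpha cells, where *Slc30a8* averaged 139% of its beta cell level, and to 5.92 to 13.1 in delta cells. The 7 alpha cell markers including *Gcg* summed to 48.3 to 139.8 in alpha cells against at most 9.07 in beta cells. The 4 delta cell markers summed to 4.36 to 9.73 in delta cells against at most 0.324 in beta cells. Counts of *Cmss1*, *Lars2*, mitochondrial and other transcripts often linked to ribosomal RNA or RNA quality took 2.43% to 14.1% of beta cell columns, with WT CON at 3.26%, both FSK columns at 2.43% and 2.45%, WT Ex-4 at 8.76%, mutant CON at 11.05% and mutant Ex-4 at 14.1%. The part of these differences in the results below was not tested.

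The upstream sequences of the 3 targets are shown because ChREBP is known to act through elements upstream of its targets. By the search described below, paired sites were found in *Txnip* and *Pklr* but not in *Arrdc4*, where only an E-box was. Each is the 250 bases before the annotated canonical start (GRCm39, GENCODE M39), written 5′ to 3′ on the strand of the gene. Capitals mark paired E-box-like sites in *Txnip* (chr3:96465017-96465266, + strand) and *Pklr* (chr3:89043629-89043878, + strand), and an E-box in *Arrdc4* (chr7:68399000-68399249, − strand).
Txnip: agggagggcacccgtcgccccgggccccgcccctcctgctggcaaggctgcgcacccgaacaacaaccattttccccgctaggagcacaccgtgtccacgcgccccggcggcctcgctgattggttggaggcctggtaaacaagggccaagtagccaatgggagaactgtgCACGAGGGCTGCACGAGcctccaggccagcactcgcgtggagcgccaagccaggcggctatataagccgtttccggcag
Pklr: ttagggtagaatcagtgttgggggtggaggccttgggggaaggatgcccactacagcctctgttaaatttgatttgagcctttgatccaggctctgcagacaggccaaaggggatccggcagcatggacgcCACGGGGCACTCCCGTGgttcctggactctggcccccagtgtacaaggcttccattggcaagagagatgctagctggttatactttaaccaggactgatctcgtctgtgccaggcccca
Arrdc4: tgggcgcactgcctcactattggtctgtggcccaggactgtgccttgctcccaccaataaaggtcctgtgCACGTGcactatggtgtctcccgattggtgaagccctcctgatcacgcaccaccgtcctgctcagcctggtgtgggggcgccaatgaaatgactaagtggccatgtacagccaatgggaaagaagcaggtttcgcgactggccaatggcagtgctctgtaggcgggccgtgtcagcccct

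Paired E-box-like sites were taken as 2 matches to CACGNG, in either orientation, with 5 bases between them, a definition written with known elements in mind and after these promoters were read. The pair lies at −79 to −63 of *Txnip* and −119 to −103 of *Pklr*, counting backwards from the start. It was found in 15 of 21568 protein-coding promoters of this length (0.0695%), searching both strands. The E-box CACGTG, which can also be 1 member of such a pair, was found in 1360 promoters (6.31%), among them *Arrdc4* at −180 to −175 and *Mlx* at −16 to −11. Neither pattern occurred in the same window of *Mlxipl* or *Mlxip*. Only the canonical start of each gene was searched. The windows of *Mlxipl* (chr5:135135505-135135754) and *Pklr* lie inside the spans of these genes given below, and sequence before any earlier start was not searched. The TGACG core of the cAMP response element, which 18.1% of the promoters hold, was found in none of the 6 windows. These matches describe letters in a window, not binding.

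*Mlxipl* was low after FSK in beta cells of both genotypes. The gene spans chr5:135118744-135168615 on the + strand with 17 exons in its canonical transcript. Its level in WT beta cells was 10.7 CP10K with CON, 2.64 with FSK and 13.2 with Ex-4. In mutant beta cells the levels were 16.7, 3.03 and 14.3 CP10K in the same order. Both FSK columns lie below the other 4, which is the difference that chose the gene. How many of all kept genes share such an order was not counted. Nothing is read from it here or for the members below. FSK against CON was 4.07-fold lower in WT (816 against 3235 counts) and 5.51-fold lower in mutant beta cells (698 against 3214 counts). Most kept genes also had a lower CP10K after FSK, since the median log2 ratio over all kept genes was −0.31 in WT and −0.14 in mutant beta cells. Set against that median, *Mlxipl* was 3.27-fold and 5.005-fold lower.

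On the log2(CP10K + 1) scale *Mlxipl* differed by −1.69 in WT and −2.13 in mutant beta cells and was the only member past 1.5-fold on that scale in either genotype. This scale compresses genes under 1 CP10K, which the 4 members other than *Mlxipl* and *Mlxip* all are. Among 10093 kept beta cell genes, 0.723% were lower and 1.52% higher by this rule after FSK in WT, and 2.70% lower and 5.12% higher in the mutant. As *Mlxipl* was chosen for this difference, nothing is read from its place in those shares.

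A plain CP10K ratio of 1.5, applied to kept genes with at least 20 counts over both columns, was added so that the low members could be read. By this rule 3 of 6 members were lower after FSK in WT beta cells (*Mlxipl*, *Txnip* and *Pklr*), beside 32.7% of 9916 genes, and 1 was higher (*Arrdc4*), beside 7.08%. In mutant beta cells 4 of 6 were lower (the same 3 and *Mlx*), beside 32.1% of 10064 genes, and *Arrdc4* was again higher, beside 22.1%. With so many genes lower by this rule, nothing is read from the count of members, and the single values follow.

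**Figure D1:**
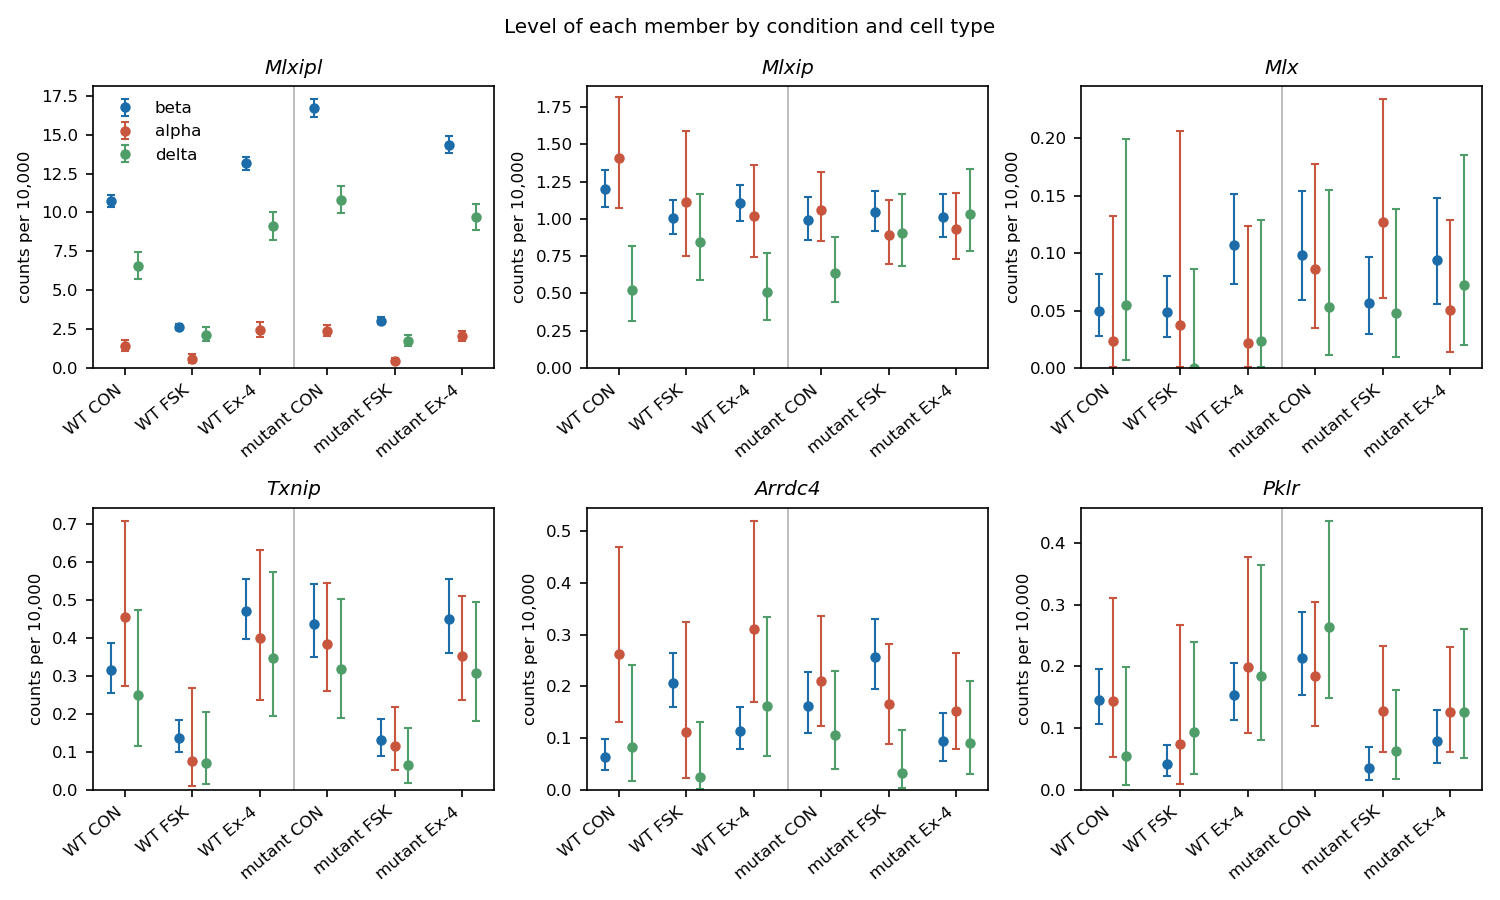
Level of each of the 6 genes (vertical axis, counts per 10000, starting at 0) in the 6 conditions, with a colour for beta, alpha and delta cells. Points are single pooled values and bars are exact 95% Poisson intervals, which cover counting error only. *Mlxipl* and *Txnip* sit low in both FSK columns of every cell type, whereas *Arrdc4* in beta cells is highest there.

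*Txnip*, the target most used to read ChREBP activity, was lower after FSK in beta cells of both genotypes. The gene spans only 3.94 kb (chr3:96465267-96469201, + strand). It measured 0.315 CP10K with CON, 0.136 with FSK and 0.470 with Ex-4 in WT. The mutant values were 0.436, 0.130 and 0.449 CP10K. The FSK columns are the lowest of the 6. The ratio was 2.32-fold lower in WT (interval 1.60 to 3.43, 42 against 95 counts) and 3.35-fold lower in the mutant (2.18 to 5.27, 30 against 84 counts). Short genes as a class were lower after FSK in beta cells, however, and once a smooth trend on gene length was removed from the log2 ratios, *Txnip* was 1.11-fold lower in WT and 1.46-fold lower in the mutant. Its difference in WT beta cells is thus close to that of genes of like length. *Mlxipl*, a long gene, was 3.52-fold and 5.68-fold lower after the same step.

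*Pklr* (chr3:89043449-89054619, + strand) went in the same direction as *Txnip* in beta cells. Its WT levels were 0.146 CP10K with CON, 0.0420 with FSK and 0.154 with Ex-4. Its mutant levels were 0.213, 0.0347 and 0.0783 CP10K. Both FSK columns are the lowest, and mutant Ex-4 lies between them and the rest. FSK against CON was 3.48-fold lower in WT (1.84 to 7.04, 13 against 44 counts) and 6.13-fold lower in the mutant (2.84 to 15.1, 8 against 41 counts). With the length trend removed it remained 2.01-fold and 3.40-fold lower. *Hcn3* lies on the opposite strand over part of *Pklr*, and no source used here says if reads were assigned by strand. *Hcn3* was lower after FSK as well, at 0.0259 against 0.126 CP10K in WT (8 against 38 counts) and 0.0999 against 0.171 in mutant beta cells (23 against 33 counts).

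*Arrdc4* (chr7:68386742-68398999, − strand) did the opposite in beta cells. In WT it was at 0.0631 CP10K with CON, 0.207 with FSK and 0.114 with Ex-4. In the mutant it was at 0.161, 0.256 and 0.0940 CP10K. The FSK columns are the 2 highest of the 6. FSK against CON was 3.28-fold higher in WT (1.94 to 5.80, 64 against 19 counts) and 1.59-fold higher in the mutant (1.01 to 2.54, 59 against 31 counts). The size in the mutant is smaller from a higher CON value, and the difference between genotypes was not tested. With the length trend removed *Arrdc4* was 5.08-fold and 2.56-fold higher. The 2 alpha-arrestin targets of ChREBP thus had opposite directions after FSK in the same pools of nuclei, with intervals that leave out 1 for both genes before the length trend is removed.

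The partners differed less. *Mlxip* (chr5:123532794-123595995, + strand), the paralog that shares MLX with ChREBP, measured 1.20 CP10K with CON, 1.01 with FSK and 1.10 with Ex-4 in WT, then 0.992, 1.05 and 1.01 CP10K in mutant cells. All 6 columns lie within 0.992 to 1.20. FSK against CON had a ratio of 0.841 (0.721 to 0.982) in WT and 1.05 (0.869 to 1.28) in the mutant. *Mlx* (chr11:100978080-100983043, + strand), the obligate partner, was seen in only 13 to 32 counts a column, or 0.0485 to 0.107 CP10K. Its FSK to CON ratio was 0.974 (0.443 to 2.14) in WT and 0.572 (0.260 to 1.22) in the mutant, both with intervals that hold 1, so its counts are too few to show a difference of this size.

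Compared per kilobase of gene span in WT CON beta cells, the level was 0.215 CP10K per kb for *Mlxipl*, 0.0800 for *Txnip*, 0.0190 for *Mlxip*, 0.0131 for *Pklr*, 0.01004 for *Mlx* and 0.00514 for *Arrdc4*. Gene span stands for the unspliced RNA that nuclei mostly hold and is only an approximate length.

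**Figure D2:**
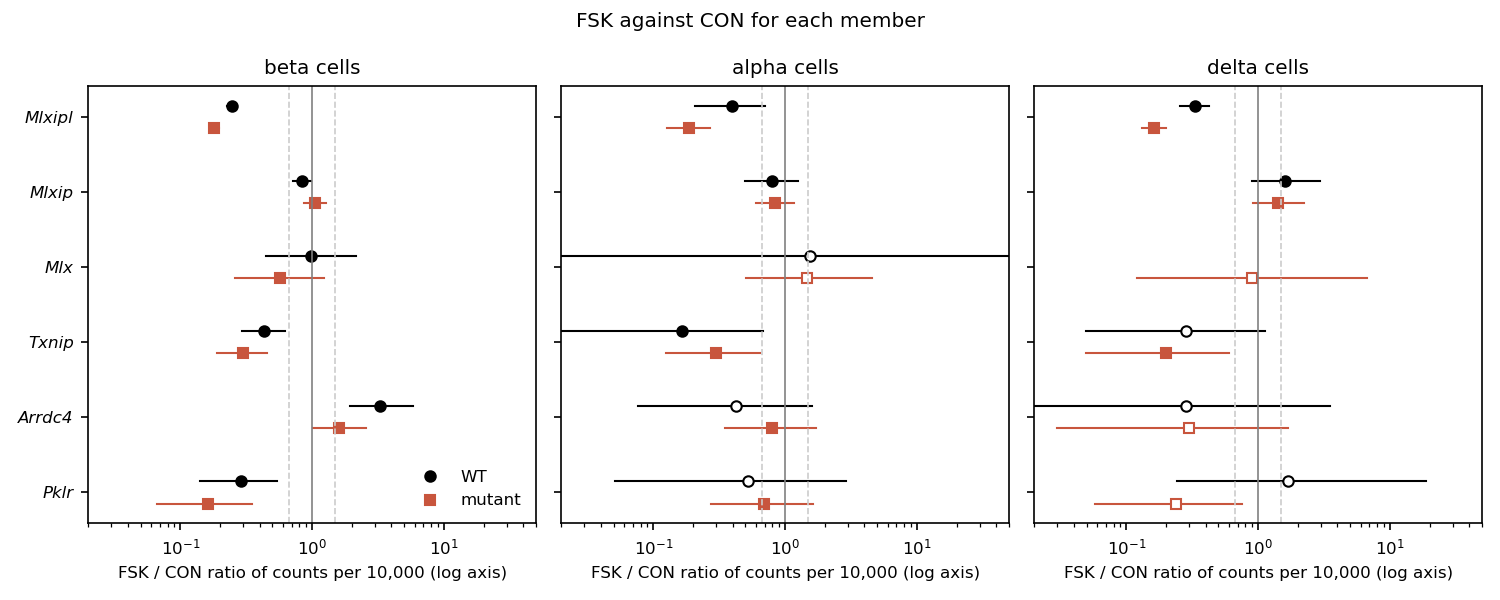
Ratio of FSK to CON (horizontal log axis, ratio of counts per 10000) for each gene in beta, alpha and delta cells, with circles for WT, squares for mutant and lines for exact 95% counting intervals, clipped at the edges. Dashed lines mark 1.5-fold, and open symbols had under 20 counts in all or did not pass the filter on low values. *Mlx* in WT delta cells, at 0 counts after FSK, is not drawn. *Mlxipl* lies left of 1 in all 6 settings, and *Arrdc4* lies right of 1 in beta cells and left of 1 in alpha and delta cells.

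In delta cells *Mlxipl* followed the beta cell pattern. Levels with CON, FSK and Ex-4 were 6.54, 2.15 and 9.10 CP10K in WT and 10.8, 1.74 and 9.68 CP10K in mutant cells. FSK against CON was 3.04-fold lower in WT and 6.19-fold lower in the mutant. Its level was 57.5% to 81.6% of that in beta cells of the same condition, whereas 9 beta cell markers (all but *Slc30a8*, which alpha cells express too) together reached 11.98% to 22.0% of theirs and singly averaged 7.38% to 40.5% over the conditions. In alpha cells *Mlxipl* measured 1.41, 0.557 and 2.44 CP10K with CON, FSK and Ex-4 in WT, against 2.40, 0.445 and 2.05 CP10K in mutant cells. These are 13.1% to 21.1% of the beta cell levels, beside 7.17% to 15.1% for the 9 markers, and singly those markers averaged 8.40% to 17.3% over the conditions. The *Mlxipl* counts in alpha columns are thus near the level at which beta cell transcripts appear there, and how much of them arose in alpha cells was not tested.

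**Figure D3:**
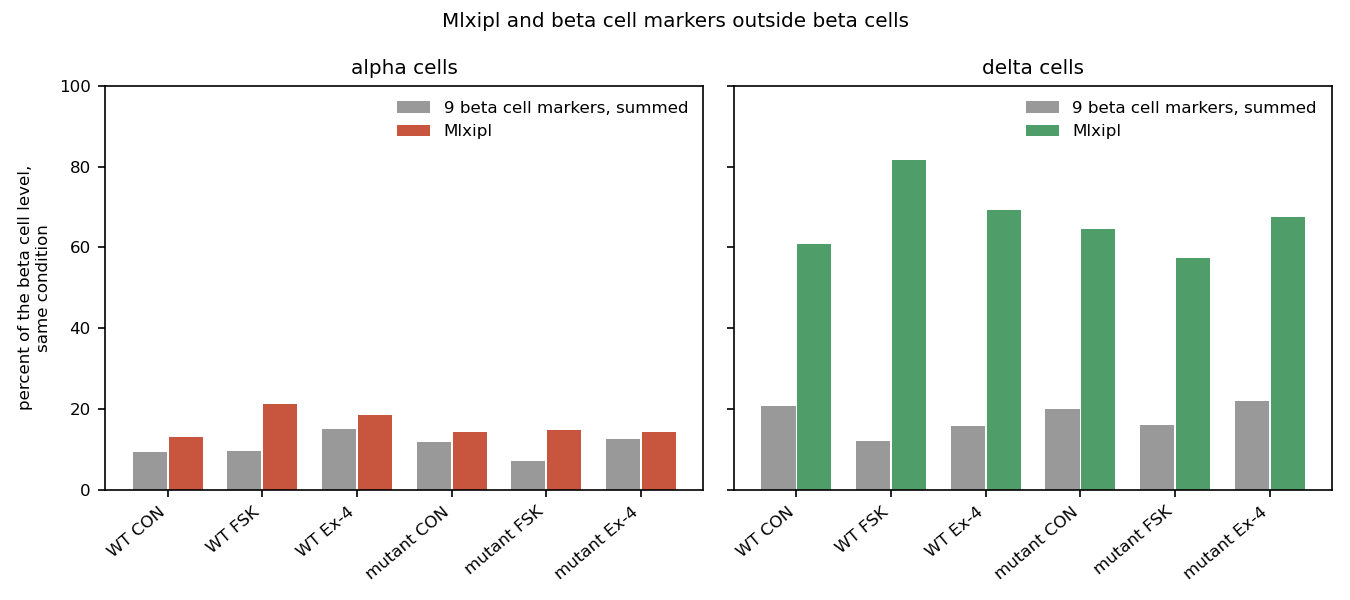
Level of *Mlxipl* (coloured bars) and summed level of 9 beta cell markers (grey bars) in alpha cells and in delta cells, each as a percent of the level in beta cells of the same condition (vertical axis). Bars are single pooled values with no error. In delta cells *Mlxipl* is at 57.5% or more in every condition and the markers at 22.0% or less, and in alpha cells both are low.

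*Txnip* in alpha cells was at 54.7% to 143.7% of its beta cell level, depending on the condition, whereas the 9 beta cell markers were at 7.17% to 15.1%. Levels with CON, FSK and Ex-4 were 0.453, 0.0742 and 0.399 CP10K in WT, against 0.383, 0.115 and 0.353 CP10K in mutant cells. FSK against CON had a ratio of 0.164 (0.0185 to 0.679) in WT, from 2 against 19 counts, and 0.299 (0.125 to 0.644) in the mutant, from 9 against 31 counts. With the length trend removed the log2 ratio was −2.28 in WT and −1.397 in mutant alpha cells, so unlike in beta cells the difference stayed large. In delta cells *Txnip* had 9 counts in WT CON, 3 in WT FSK, 18 in mutant CON and 4 in mutant FSK, a ratio of 0.199 (0.0491 to 0.605) in the mutant and one whose interval holds 1 in WT (0.283, 0.0492 to 1.13). After removal of the length trend the log2 ratio was −1.19 in WT and −1.36 in the mutant.

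In alpha and delta cells the *Arrdc4* values after FSK were not above CON. In alpha cells it had 11 counts in WT CON and 3 in WT FSK, and 17 in mutant CON and 13 in mutant FSK, with ratios of 0.424 (0.0760 to 1.61) and 0.788 (0.352 to 1.72), and both intervals hold 1. In delta cells it had 3 against 1 in WT and 6 against 2 in mutant cells, too few to pass the filter. The intervals of alpha and beta cells do not overlap in WT and do overlap in the mutant. The difference between cell types was not tested. *Pklr* in alpha cells had 6 counts (CON) against 2 (FSK) in WT and 15 against 10 in mutant cells, with ratios whose intervals hold 1. In delta cells it had 2 against 4 counts in WT, and 15 against 4 in mutant cells (0.239, 0.0578 to 0.751). *Mlxip* in delta cells was 1.61 times its CON level in WT (0.897 to 2.96) and 1.42 times in the mutant (0.920 to 2.22), and *Mlx* did not pass the filter in alpha or delta cells.

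By the ratio rule, 2 of 3 members that could be read in WT alpha cells were lower (*Mlxipl* and *Txnip*), beside 18.4% of 5333 genes, and none was higher, beside 11.7%. In mutant alpha cells 2 of 5 were lower, beside 13.1% of 8601 genes, and none higher, beside 23.8%. In WT delta cells 1 of 2 was lower (*Mlxipl*), beside 20.7% of 5469 genes, and 1 higher (*Mlxip*), beside 18.2%. In mutant delta cells 2 of 3 were lower (*Mlxipl* and *Txnip*), beside 21.9% of 7565 genes, and none higher, beside 27.7%.

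Ex-4, whose receptor also signals through cAMP, was not accompanied by a low *Mlxipl*. The median of the cAMP response list given below, however, lay close to that of all genes after Ex-4 in beta cells. By the ratio rule 5 of its 11 genes were higher and 2 lower in WT beta cells, beside 27.4% and 12.3% of all genes. In mutant beta cells 1 of 10 was higher and 1 lower, beside 4.30% and 5.20%. In WT beta cells *Mlxipl* was 1.22 times its CON level (1.17 to 1.28) and *Txnip* 1.49 times (1.14 to 1.95), while the median log2 ratio of all kept genes was 0.16. By the ratio rule 2 of 6 members were higher (*Mlx* and *Arrdc4*), beside 27.4% of 10061 genes, and none was lower, beside 12.3%. *Mlx* was at 2.16 times (1.13 to 4.28) and *Arrdc4* at 1.81 times (1.00 to 3.36), and both changed sign when the length trend was removed on the log2(CP10K + 1) scale. In mutant beta cells *Mlxipl* after Ex-4 was 0.860 times its CON level (0.817 to 0.905) and *Txnip* 1.03 times (0.753 to 1.41). There *Pklr* was 2.72-fold lower (1.47 to 5.29, 15 against 41 counts) and *Arrdc4* 1.71-fold lower with an interval that holds 1, so 2 of 6 were lower, beside 5.20% of 9981 genes, and none higher, beside 4.30%. The FSK and Ex-4 comparisons of a genotype share their CON column.

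Untreated mutant beta cells had more *Mlxipl* than untreated WT beta cells, at 1.55 times (1.48 to 1.63). The same ratio was 1.70 (1.27 to 2.32) in alpha cells and 1.65 (1.42 to 1.92) in delta cells. In beta cells *Arrdc4* was at 2.55 times (1.397 to 4.78), *Mlx* at 1.98 times (0.954 to 4.19), *Txnip* at 1.38 times (1.02 to 1.88), *Pklr* at 1.46 times (0.929 to 2.28) and *Mlxip* at 0.828 times (0.691 to 0.989). Thus 3 of 6 were higher by the ratio rule (*Mlxipl*, *Mlx* and *Arrdc4*), beside 25.4% of 10050 genes, and none was lower, beside 22.3%. The difference of *Txnip* changed sign when the length trend was removed on the log2(CP10K + 1) scale. After FSK the genotypes were close, with *Mlxipl* in the mutant at 1.15 times WT (1.04 to 1.27) and *Txnip* at 0.960 times (0.580 to 1.57).

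Other ChREBP targets, from a list of 22 lipogenic, fructose and glucose handling genes, held both lower and higher values after FSK. Of the 22, 17 were in the table and 11 passed the filter in beta cells. By the ratio rule 4 were lower with 2 higher in WT, whereas the mutant had 4 lower with 5 higher. Over all genes 32.7% were lower and 7.08% higher in WT, with 32.1% and 22.1% in the mutant. The lower share of the list is thus near that of all genes, whereas its higher share is above that of all genes, from few genes. The same shares of all genes stand beside the other list counts in beta cells below. *Rgs16*, a regulator of G protein signaling that glucose induces in islets, was 6.90-fold lower in WT (3.10 to 18.1, 7 against 47 counts) and 5.98-fold lower in the mutant (3.10 to 12.7, 11 against 55 counts). *Khk* (ketohexokinase) was 2.15-fold lower in WT (1.01 to 4.88), and *Tkfc* (triokinase) 2.17-fold lower in the mutant (1.14 to 4.27). Both were also past the ratio in the other genotype, from few counts. *Khk* had 10 with FSK against 14 with CON in the mutant, and *Tkfc* 14 against 21 in WT. Against this, *G6pc2*, the islet glucose-6-phosphatase subunit that opposes glucokinase, measured 4.199 CP10K (CON) against 8.97 (FSK) in WT and 1.59 against 9.34 in mutant cells, which is 2.14-fold (2.00 to 2.28) and 5.86-fold (5.20 to 6.63) higher. *Scd2*, a stearoyl-CoA desaturase, was 2.57-fold (1.76 to 3.82) and 1.87-fold (1.20 to 2.98) higher. In the mutant *Elovl6*, a fatty acid elongase, was 2.87-fold higher (2.18 to 3.83), *Acaca*, acetyl-CoA carboxylase, 1.72-fold higher (1.46 to 2.03), and *Fasn*, fatty acid synthase, 2.01-fold lower (1.46 to 2.79).

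The median of the 11 list genes was 0.06 on the log2(CP10K + 1) scale in WT and 0.02 in the mutant, beside −0.05 and −0.02 for all kept genes. As log2 ratios the list medians were 0.14 and 0.02, beside −0.31 and −0.14. These medians cover genes that lay on both sides.

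Genes of glycolysis and pyruvate entry as a list lay close to all genes after FSK in beta cells. Of 24 listed, 19 passed the filter, and 8 of them were lower with none higher by the ratio rule in WT, against 9 lower with 4 higher in mutant cells, and all genes were also more often lower than higher (32.7% against 7.08% in WT, 32.1% against 22.1% in the mutant). *Pdk1*, which restrains pyruvate dehydrogenase, was 4.37-fold lower in WT (2.66 to 7.50) and 1.79-fold lower in the mutant with an interval that holds 1. *Pfkl*, the liver-type phosphofructokinase, was 3.51-fold (2.08 to 6.21) and 2.46-fold (1.38 to 4.50) lower, and *Pfkfb3*, which makes its activator fructose 2,6-bisphosphate, 2.71-fold (1.96 to 3.80) and 1.56-fold (1.07 to 2.27) lower. *Slc2a2*, the main glucose transporter of mouse beta cells, was 1.52-fold lower in WT (1.44 to 1.60). In the mutant *Pcx*, pyruvate carboxylase, was 2.32-fold higher (2.04 to 2.65) and *Pfkp*, the platelet-type phosphofructokinase, 2.46-fold higher (1.78 to 3.45). The median log2 ratio of the list was −0.36 in WT and −0.19 in the mutant, close to that of all kept genes. In delta cells 6 of 9 readable glycolysis genes were lower in WT and 8 of 12 in the mutant, with none higher, beside 20.7% and 21.9% of all delta cell genes lower and 18.2% and 27.7% higher.

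Within the MAX and MLX network, whose MXD proteins are repressors that can pair with MAX or MLX, 6 of 10 genes passed the filter. By the ratio rule 2 were lower with 1 higher in WT, and the mutant had 2 lower with none higher. *Mxd4* was 2.45-fold (1.77 to 3.44) and 3.47-fold (2.56 to 4.75) lower, *Mxi1* was 1.91-fold lower in WT (1.51 to 2.42), *Mnt* 2.10-fold lower in the mutant (1.46 to 3.05), and *Mxd1* 1.68-fold higher in WT (1.22 to 2.34). Of the alpha-arrestin and thioredoxin list, 6 of 8 passed. *Arrdc1* was 1.99-fold (1.03 to 3.99) and 3.12-fold (1.78 to 5.71) lower and *Txnrd1*, thioredoxin reductase, 1.91-fold (1.63 to 2.25) and 1.67-fold (1.38 to 2.03) higher. *Txnrd2*, its mitochondrial form, was the only other one past the ratio, 1.63-fold lower in the mutant (1.05 to 2.53).

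Among 10 lipid and glucose regulators, all of which passed the filter, 1 was lower with 1 higher in WT, and the mutant had 1 lower with 4 higher. *Nr1h2* (LXRβ), a nuclear receptor of lipid metabolism, was 2.32-fold (1.45 to 3.80) and 3.42-fold (2.32 to 5.15) lower. *Ppargc1a*, a coactivator that cAMP induces in several tissues, was 2.21-fold (1.67 to 2.96) and 6.98-fold (4.21 to 12.3) higher. Of 14 genes listed for the cAMP response, 11 passed the filter, and 7 were higher with none lower in WT, against 7 higher with 1 lower (*Rgs2*) in mutant cells, beside 7.08% and 22.1% of all genes higher. *Nr4a2* was 3.46-fold (231 against 65 counts) and 8.01-fold (297 against 31 counts) higher, *Irs2*, which relays insulin signaling, 2.65-fold (2.23 to 3.14) and 2.58-fold (2.13 to 3.14) higher, and *Sik1* 1.86-fold (1.36 to 2.55) and 2.64-fold (1.88 to 3.76) higher. The list medians as log2 ratios were 0.89 and 0.96.

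**Figure D4:**
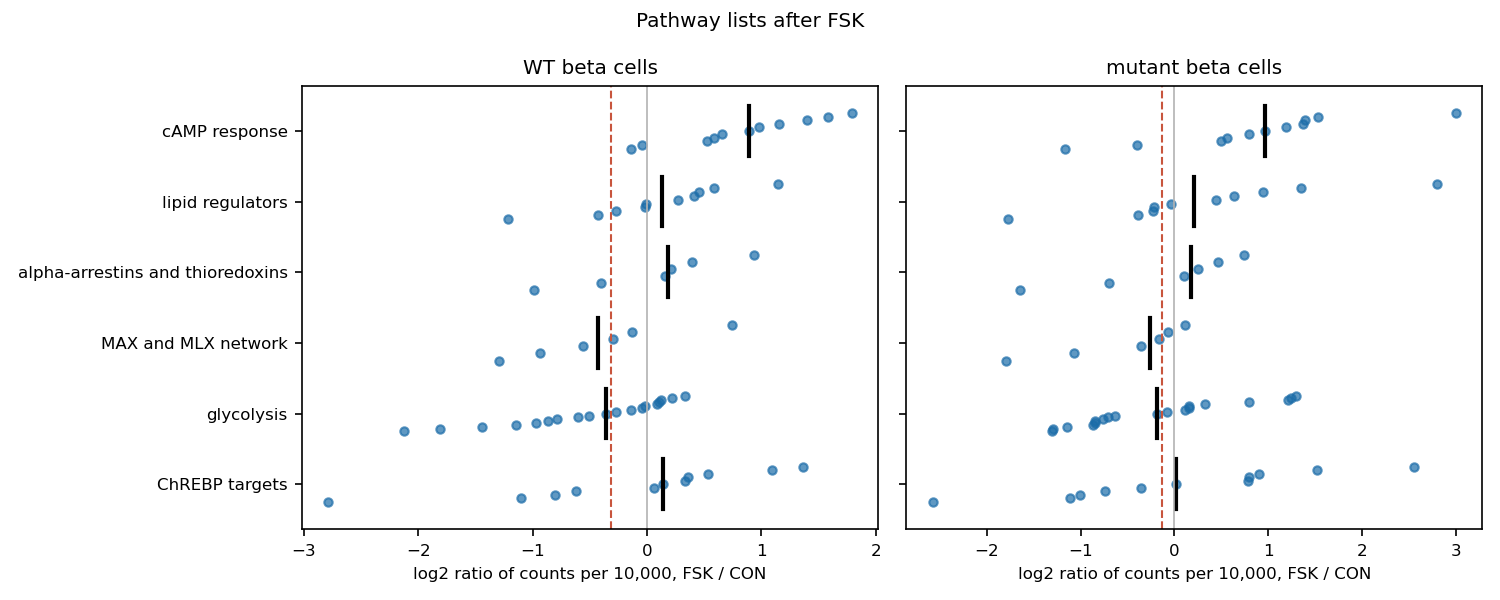
Log2 ratio of FSK to CON in counts per 10000 (horizontal axis) for the kept genes of 6 lists in WT and mutant beta cells. Each point is a gene, the black bar is the median of its list and the dashed line the median of all kept genes (−0.31 in WT, −0.14 in mutant). The cAMP response list lies to the right at medians of 0.89 and 0.96, and ChREBP targets spread to both sides.

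The genes whose levels moved most like those of *Mlxipl* were found by Pearson correlation of log2(CP10K + 1) over the 18 beta, alpha and delta columns, each cell type centred on its own mean, among 4992 genes. They were *Baiap3* (r = 0.98), which takes part in dense core vesicle traffic, *Ddx5* (0.96), an RNA helicase, *Syne2* (0.96), a nuclear envelope protein, *Mllt6* (0.96) and an unnamed gene with the identifier ENSMUSG00000095041 (0.96). *Baiap3* in beta cells measured 1.29, 0.120 and 1.99 CP10K with CON, FSK and Ex-4 in WT, against 2.19, 0.169 and 1.75 CP10K in mutant cells. *Ddx5* measured 12.1, 4.71 and 20.3 CP10K in WT cells, then 21.0, 4.37 and 20.4 CP10K in mutant cells. Of the members, *Txnip* had r = 0.92, *Pklr* 0.75, *Mlx* 0.29, *Arrdc4* 0.06 and *Mlxip* −0.16, and *Mxd4* had 0.92, *Rgs16* 0.88 and *G6pc2* −0.73. The 18 columns share 6 islet pools and are not independent, so these values only describe the table.

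Of the 15 genes whose promoter holds the paired E-box-like sites, 11 were in the table and 9 passed the filter in beta cells, 7 of them besides *Txnip* and *Pklr*. *Fam124a* and *A430005L14Rik* did not pass and are left out of the tallies below. *Fam124a* was higher after FSK, at 36 counts against 0 in WT and 27 against 2 in the mutant, with intervals above 1. *A430005L14Rik* had 7 against 15 and 5 against 13 counts. *Ddhd2*, a phospholipase, had FSK to CON ratios of 0.619 (0.493 to 0.774) in WT and 0.529 (0.416 to 0.670) in the mutant, and *Zbtb8os* 0.556 (0.322 to 0.940) and 0.470 (0.248 to 0.863). *Man2b2*, an alpha-mannosidase, was at 0.680 (0.434 to 1.05) and 0.324 (0.180 to 0.561), and *Hes1*, a Notch target, at 0.389 (0.0891 to 1.35) and 0.266 (0.0960 to 0.645). *Rbbp4* was at 0.784 (0.606 to 1.01) and 0.864 (0.639 to 1.17). *Crybg3* was at 1.48 (1.30 to 1.69) in WT, just under the 1.5-fold limit, and at 1.08 (0.910 to 1.28) in the mutant, and *Fnip1* was at 0.721 (0.652 to 0.796) and 1.11 (0.979 to 1.26). By the ratio rule 4 of 8 readable genes of this set were lower in WT and 6 of 9 in the mutant, *Txnip* and *Pklr* included, with none higher, beside 32.7% and 32.1% of all genes lower and 7.08% and 22.1% higher. Ratios were below 1 for 8 of 9 in WT and for 7 of 9 in the mutant. The set is small and was drawn up with *Txnip* and *Pklr* in view, so nothing is read from these shares.

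Outside the 3 main endocrine types, columns were shallow and mostly levels are given. *Mlxipl* counts with FSK against CON were 1 against 14 (WT) and 2 against 33 (mutant) in PP columns. They were 4 against 29 and 4 against 58 in endothelial, and 1 against 8 and 1 against 25 in macrophage columns. These intervals all lie below 1. Muscle (1 against 7, 9 against 10) and neuron columns (0 against 2, 0 against 25) each had an interval that holds 1 in 1 genotype, and ductal columns in both. *Mlxipl* had a median over the 6 conditions of 11.9 CP10K in beta cells, 7.82 in delta cells, 4.60 in neurons, 2.43 in macrophages, 1.90 in PP cells, 1.73 in alpha cells, 1.63 in endothelial cells, 1.33 in muscle cells and 0.259 in ductal cells (7 counts in all). The range over conditions was 2.64 to 16.7 in beta, 1.74 to 10.8 in delta, 0.445 to 2.44 in alpha and 0 to 10.05 CP10K in neuron columns, so the order of neighbouring types lies within the spread between conditions. When counts were summed over conditions instead, neurons came above delta cells, at 7.59 (6.37 to 8.98) against 6.66 CP10K (6.37 to 6.95), with overlapping intervals and with conditions in different shares in each type. The 9 beta cell markers reached 17.5% to 65.2% of their beta cell level in the neuron columns as well. In PP columns they reached 3.66% to 22.5%, in endothelial 4.64% to 24.8%, in muscle 5.32% to 21.7% and in macrophage 6.07% to 30.5%. *Mlxipl* stood at 7.15% to 21.0%, 6.85% to 31.2%, 4.31% to 34.1% and 7.86% to 46.8% in the same order. How much of the *Mlxipl* in these columns arose in the named cell types was not tested. *Mlxip* had medians of 0.739 (delta cells) to 1.52 CP10K (macrophages). The median of *Txnip* was 0.629 CP10K in PP cells and 0.536 in neurons, from 26 and 9 counts in all, against 0.376 in beta and 0.368 in alpha cells, and the ranges over conditions of these types overlap.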

How the data were processed

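Single nucleus RNA-seq of cultured mouse islets was processed by the authors with the Parse pipeline on the mouse genome (mm39), followed by removal of nuclei with extreme counts or mitochondrial share, normalization, integration and annotation of cell types. No source states if raw or corrected counts were pooled. The deposited values are natural log values, ln(1 + 10000 × count / column total), for 17362 genes in 54 columns. Counts were recovered from them, with 100% of values within 0.001 of a whole number, for column totals of 1522 to 3094377.

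With 1 pooled value per condition and cell type no test was possible. Genes were kept at or above the 40th percentile of means over the 6 conditions (10093 in beta, 9487 in alpha and 9256 in delta cells). All 6 members passed in beta cells, 5 in alpha cells (not *Mlx*) and 4 in delta cells (not *Mlx* and *Arrdc4*). Differences of log2(CP10K + 1) were called at 1.5-fold. A CP10K ratio of 1.5 with 20 or more counts over both columns was chosen after seeing the data. Intervals are exact Poisson for counts and exact binomial, conditional on the sum, for ratios (95%). The calls on log2(CP10K + 1) were tested on simulated data, only with changes well past 1.5-fold in well-counted genes. The ratio interval was tested at 1 pair of expected counts, and the CP10K ratio rule was not simulated.

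The members and lists were chosen with earlier results of these data known. Named are the 6 members, the 5 genes most correlated with *Mlxipl*, and some, not all, of the list genes past 1.5-fold after FSK in beta cells. Chosen after their values were seen were the genes with paired E-box-like sites and genes on the opposite strand. Gene spans and promoters came from GRCm39 with GENCODE M39, which gave a length for 97.4% of kept beta cell genes. Software was matplotlib 3.10.9, statsmodels 0.14.6, scipy 1.17.1, numpy 2.4.6 and pandas 2.3.3 under Python 3.11.15.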

Additional observations from a re-analysis of the deposited data

How the results depend on the processing

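No paired analysis was possible because each condition has 1 pooled value per cell type, and for the same reason no replicate could be left out. Alternatives were another pseudocount (the median of kept means, times 0.01 or 1), the median difference set to 0, columns rescaled without 13 genes linked to ribosomal RNA or mitochondria, a length trend removed (lowess, span 0.3), other filters and a 2-fold threshold. The direction of *Mlxipl* after FSK was the same in all of them. In WT beta cells it was −2.02 and −1.90 with the lower and higher pseudocount and −1.82 as a ratio with the length trend removed. In mutant beta cells it was −2.46, −2.34 and −2.51, and −2.27 after rescaling. The number of members lower after FSK, 1 in each genotype, was 3 in WT and 4 in the mutant with the lower pseudocount and with the CP10K ratio, 2 in each as a ratio with the length trend removed, and 2 in the mutant with the higher pseudocount. The number higher, 0 in each genotype, was 1 in each with the lower pseudocount and with the CP10K ratio, and 2 in WT and 1 in the mutant as a ratio with the length trend removed, where *Mlx* was added in WT and *Txnip* left the lower ones. The lower pseudocount and the ratio remove the compression of genes under 1 CP10K by construction. The median of the ChREBP target list was 0.19 in WT and 0.52 in the mutant with a filter at the 75th percentile, which keeps fewer genes. Of 90 differences of members in beta, alpha and delta cells, 33 had an interval that leaves out 1, and 3 of these changed sign, all under removal of the length trend: *Mlx* and *Arrdc4* after Ex-4 in WT beta cells and *Txnip* in untreated mutant against WT beta cells. Depth limits alpha and delta cells most, where *Arrdc4*, *Pklr* and *Mlx* had 17 or fewer counts in a column.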
